A study of Mus musculus with 12 samples.

Results

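The genes described here are 48 mouse genes of glutathione and NRF2 antioxidant defence, chosen by name and found once each among the 23235 gene symbols listed in the deposited files. They comprise 22 glutathione transferases, the regulator Nfe2l2 with Keap1 and Osgin1, and genes of glutathione synthesis, the thioredoxin and peroxidase systems, NADPH supply, and quinone, carbonyl, haem and sugar metabolism. PolyA RNA from FVB/NJ mice was sequenced in 12 libraries, with 3 libraries in each of 4 groups. The first 2 groups were papillomas, which are pre-malignant skin tumours, treated for 6 weeks with 20% camphor white oil (CWO, an essential oil of the camphor tree) or with acetone vehicle. All papilloma mice had been shaved at 6 to 7 weeks of age, given 400 nmol of the carcinogen DMBA once, and then treated repeatedly with the tumour promoter TPA at 10 nmol. Each papilloma library pooled 4 tumours of similar size from 1 mouse. The other 2 groups were epidermis of shaved mice taken 24 h after 400 µL of 20% CWO or acetone vehicle, with no DMBA or TPA named in their labels. Epidermis was lifted off with ammonium thiocyanate, and RNA integrity decided which 3 samples per treatment were sequenced; the labels speak of 5 mice without saying whether per treatment. For tumours no separation step is named before homogenisation. The labels give no age for the epidermis mice and do not say whether TPA continued during the 6 weeks.

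NRF2, the protein of Nfe2l2, is a transcription factor that Keap1 marks for degradation until electrophiles or oxidants modify Keap1. Freed NRF2 binds antioxidant response elements with a small Maf partner and is known to raise enzymes that make glutathione, conjugate it to reactive compounds, reduce thioredoxin and regenerate NADPH. In skin the pathway is known for protecting keratinocytes, and lasting NRF2 activity is known in squamous tumours.

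The libraries held 11.1 to 24.6 M fragments (M, mega), and 11838 to 12452 symbols per library had an FPKM of at least 1 (fragments per kilobase of transcript per M mapped fragments, Cufflinks). Summed keratinocyte markers were at 27223.0 to 36514.5 FPKM in papillomas and at 22995.9 to 29699.0 FPKM in epidermis. Members of that sum moved apart: the basal keratin Krt14 was at 15368.7 to 17072.7 FPKM in papillomas and 2605.2 to 5279.4 in epidermis, whereas Lor, of the cornified layer, was at 1301.7 to 2159.1 and 5833.9 to 8289.1. Other cell types differed between tissues: summed fibroblast markers were at 335 to 558 FPKM in papillomas and 11.8 to 68.7 in epidermis, sebaceous gland markers at 163 to 421 and 2304.3 to 3292.1, and Langerhans and T cell markers at 4.31 to 8.39 and 80.0 to 94.9. Most of the papilloma fibroblast sum was Col1a1, Col1a2 and Col3a1. Dcn of that list overlapped, at 6.11 to 22.2 FPKM in papillomas and 4.45 to 26.4 in epidermis, while Lum and Pdgfra were higher in papillomas. Macrophage markers summed to 351 to 615 FPKM in papillomas and 92.4 to 125 in epidermis, but Arg1 made up 271 to 517 FPKM of the papilloma sum. The defining marker Csf1r ran the other way, at 8.31 to 9.22 FPKM in CWO papillomas and 21.7 to 29.3 in CWO epidermis. Emr1 did so too, at 0.573 to 1.65 in all papillomas and 3.74 to 5.23 in all epidermis. Cd14 was higher in papillomas, at 14.9 to 29.2 FPKM against 0.564 to 3.15 in epidermis. Cd68 and Itgam were also higher in every papilloma library than in every epidermis library with a value. Lyz2 and Mmp12 overlapped between the tissues. Within epidermis, summed skeletal muscle markers were 2862.2, 2190.8 and 2805.3 FPKM with CWO, against 8278.3, 13335.2 and 2705.5 FPKM with vehicle, so vehicle libraries 1 and 2 stood apart. In papillomas the muscle sum was 0.46 to 302 FPKM. Erythroid markers summed to 433 to 3932.9 FPKM in papillomas and 215 to 666 in epidermis, hair follicle markers to 73.5 to 681 and 4.57 to 129, and endothelial markers to 24.3 to 34.5 and 2.69 to 11.4. Hba-a2 of the erythroid list ran the other way under vehicle, at 0.000668 to 0.000895 FPKM in papillomas and 5.61 to 48.6 in epidermis. In the hair follicle list Krt71, Krt25 and Krt27 were higher in every papilloma library, while Krt28, Krt35 and Tchh overlapped. Krt85 had no value in some papilloma libraries and added nothing to their sums. Tek of the endothelial list overlapped. The 6 adipocyte markers summed to 4267.6 to 5208.0 FPKM in papillomas and 35.6 to 321 in epidermis, nearly all of it Fabp4 in papillomas, where the defining marker Adipoq was at 0 to 1.42 FPKM. The part of these differences in the results below was not tested except where a value without the muscle-rich libraries is given. In RNA from whole tissue, fewer cells of a type and less RNA per cell cannot be told apart.

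The core of the antioxidant response element, TGACNNNGC read on both strands with overlapping matches kept, was looked for in the 250 bases before each transcription start in RefSeq (GRCm38.p6). Promoters were listed for 42 of the 48 genes, and 10 of these (23.8%) held at least 1 match, against 3112 of 27025 genes (11.5%) with a listed promoter. These counts describe letters in a window and were not tested. Gsta4, Gclc, Hmox1, Gsr, Prdx6 and Gstt2 had no listed promoter and were not searched. The 10 genes with a match were Gsta3, Gstm5, Gstm7, Mgst1, Gclm, Txnrd1, Prdx1, G6pdx, Ugdh and Nfe2l2. In papillomas under vehicle 4 of them were called higher (Gclm, Prdx1, G6pdx and Nfe2l2) and 4 lower (Gsta3, Gstm5, Mgst1 and Txnrd1), Ugdh did not pass and Gstm7 was below the filter. Of all genes tested in that comparison, 31.8% were called higher and 38.3% lower. Of the promoters shown, the first 4 hold a match, in capitals, and belong to genes that were higher in papillomas under vehicle, and the last 2 belong to Gsto1 and Gpx2, which had some of the largest differences and no match in the window. Each is printed 5′ to 3′ on the gene's strand and ends at the base before the start.
Gclm (chr3:122245307-122245556, plus strand, match 134 bases before the start): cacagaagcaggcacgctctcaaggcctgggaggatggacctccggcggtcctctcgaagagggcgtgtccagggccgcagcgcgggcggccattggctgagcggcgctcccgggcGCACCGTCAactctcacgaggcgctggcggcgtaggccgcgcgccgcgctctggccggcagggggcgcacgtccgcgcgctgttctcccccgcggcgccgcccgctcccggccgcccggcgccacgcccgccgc
Prdx1 (chr4:116685349-116685598, plus strand, match 133 bases before the start): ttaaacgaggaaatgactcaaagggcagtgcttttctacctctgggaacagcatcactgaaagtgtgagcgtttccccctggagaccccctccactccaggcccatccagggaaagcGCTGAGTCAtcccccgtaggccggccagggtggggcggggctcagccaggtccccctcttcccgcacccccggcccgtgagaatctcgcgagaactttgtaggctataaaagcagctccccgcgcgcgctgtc
G6pdx (chrX:74428881-74429130, minus strand, match 57 bases before the start): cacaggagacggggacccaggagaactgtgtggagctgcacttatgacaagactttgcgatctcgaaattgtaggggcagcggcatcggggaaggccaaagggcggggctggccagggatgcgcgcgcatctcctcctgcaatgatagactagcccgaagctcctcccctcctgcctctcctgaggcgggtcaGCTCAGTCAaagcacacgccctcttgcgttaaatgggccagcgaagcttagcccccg
Nfe2l2 (chr2:75704664-75704913, minus strand, match 240 bases before the start): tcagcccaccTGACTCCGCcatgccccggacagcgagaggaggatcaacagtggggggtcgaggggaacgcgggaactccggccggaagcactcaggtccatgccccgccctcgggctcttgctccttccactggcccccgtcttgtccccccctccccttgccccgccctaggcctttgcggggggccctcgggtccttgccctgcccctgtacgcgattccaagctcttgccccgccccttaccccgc
Gsto1 (chr19:47854723-47854972, plus strand): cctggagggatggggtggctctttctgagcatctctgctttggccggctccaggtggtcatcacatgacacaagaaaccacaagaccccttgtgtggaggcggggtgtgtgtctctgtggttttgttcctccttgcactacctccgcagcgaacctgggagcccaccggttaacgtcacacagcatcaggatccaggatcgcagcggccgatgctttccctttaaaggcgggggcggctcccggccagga
Gpx2 (chr12:76795555-76795804, minus strand): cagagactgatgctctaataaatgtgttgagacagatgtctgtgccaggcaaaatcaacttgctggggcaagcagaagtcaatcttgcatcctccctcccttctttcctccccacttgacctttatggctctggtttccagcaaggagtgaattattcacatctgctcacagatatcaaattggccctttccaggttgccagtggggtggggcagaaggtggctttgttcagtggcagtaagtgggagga

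Which of these genes differ between tumour and normal epidermis was read from 2 comparisons that share no library, papilloma against epidermis under vehicle and the same under CWO. Among the chosen genes, glutathione transferases were mostly lower in papillomas and the 26 others mostly higher. Under vehicle, 5 of 19 transferases that passed the filter (3 or more of the 6 libraries compared at an FPKM of 1 or higher) were higher, 12 were lower and 2 did not pass the test. Of the 26 other genes, 18 were higher, 6 lower and 2 did not pass. In all 41 of 45 genes were called by limma at an adjusted p under 0.05, beside 70.2% of the 12788 genes tested (31.8% called higher and 38.3% called lower). The median log2 fold change on the log2(FPKM + 1) scale was 0.26 over the 45 genes, -0.86 over the transferases and 0.85 over the others, beside -0.07 over all genes tested. Under CWO 20 of 45 were higher and 18 lower, beside 68.8% of 12689 genes called (29.1% higher and 39.7% lower), and the median was 0.05 beside -0.12 over all genes tested. The libraries of the tissues did not overlap in 40 of the 45 genes under vehicle, beside 74.5% of all genes tested. Of the genes called, 37 were called in both comparisons, each in the same direction, which is 90.2% of those called under vehicle and 97.4% of those called under CWO. The same share over all genes tested was not counted, so this overlap is not shown to be particular to these genes. Further pathway genes, kept in separate lists, were more often lower than higher. Of 70 tested, 17 were higher and 36 lower under vehicle (median log2 fold change -0.32), and 16 and 35 under CWO (-0.46). Under vehicle the list of further NADPH supply genes had 3 higher and 3 lower. That of conjugation, export and iron storage had 3 higher and 10 lower. Tissue goes with DMBA and TPA, time, the way of isolation and the cell types above, and these cannot be told apart. Genes of low level that passed only through the tissue where they were high had to differ, so the counts describe these libraries.

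**Figure D1:**
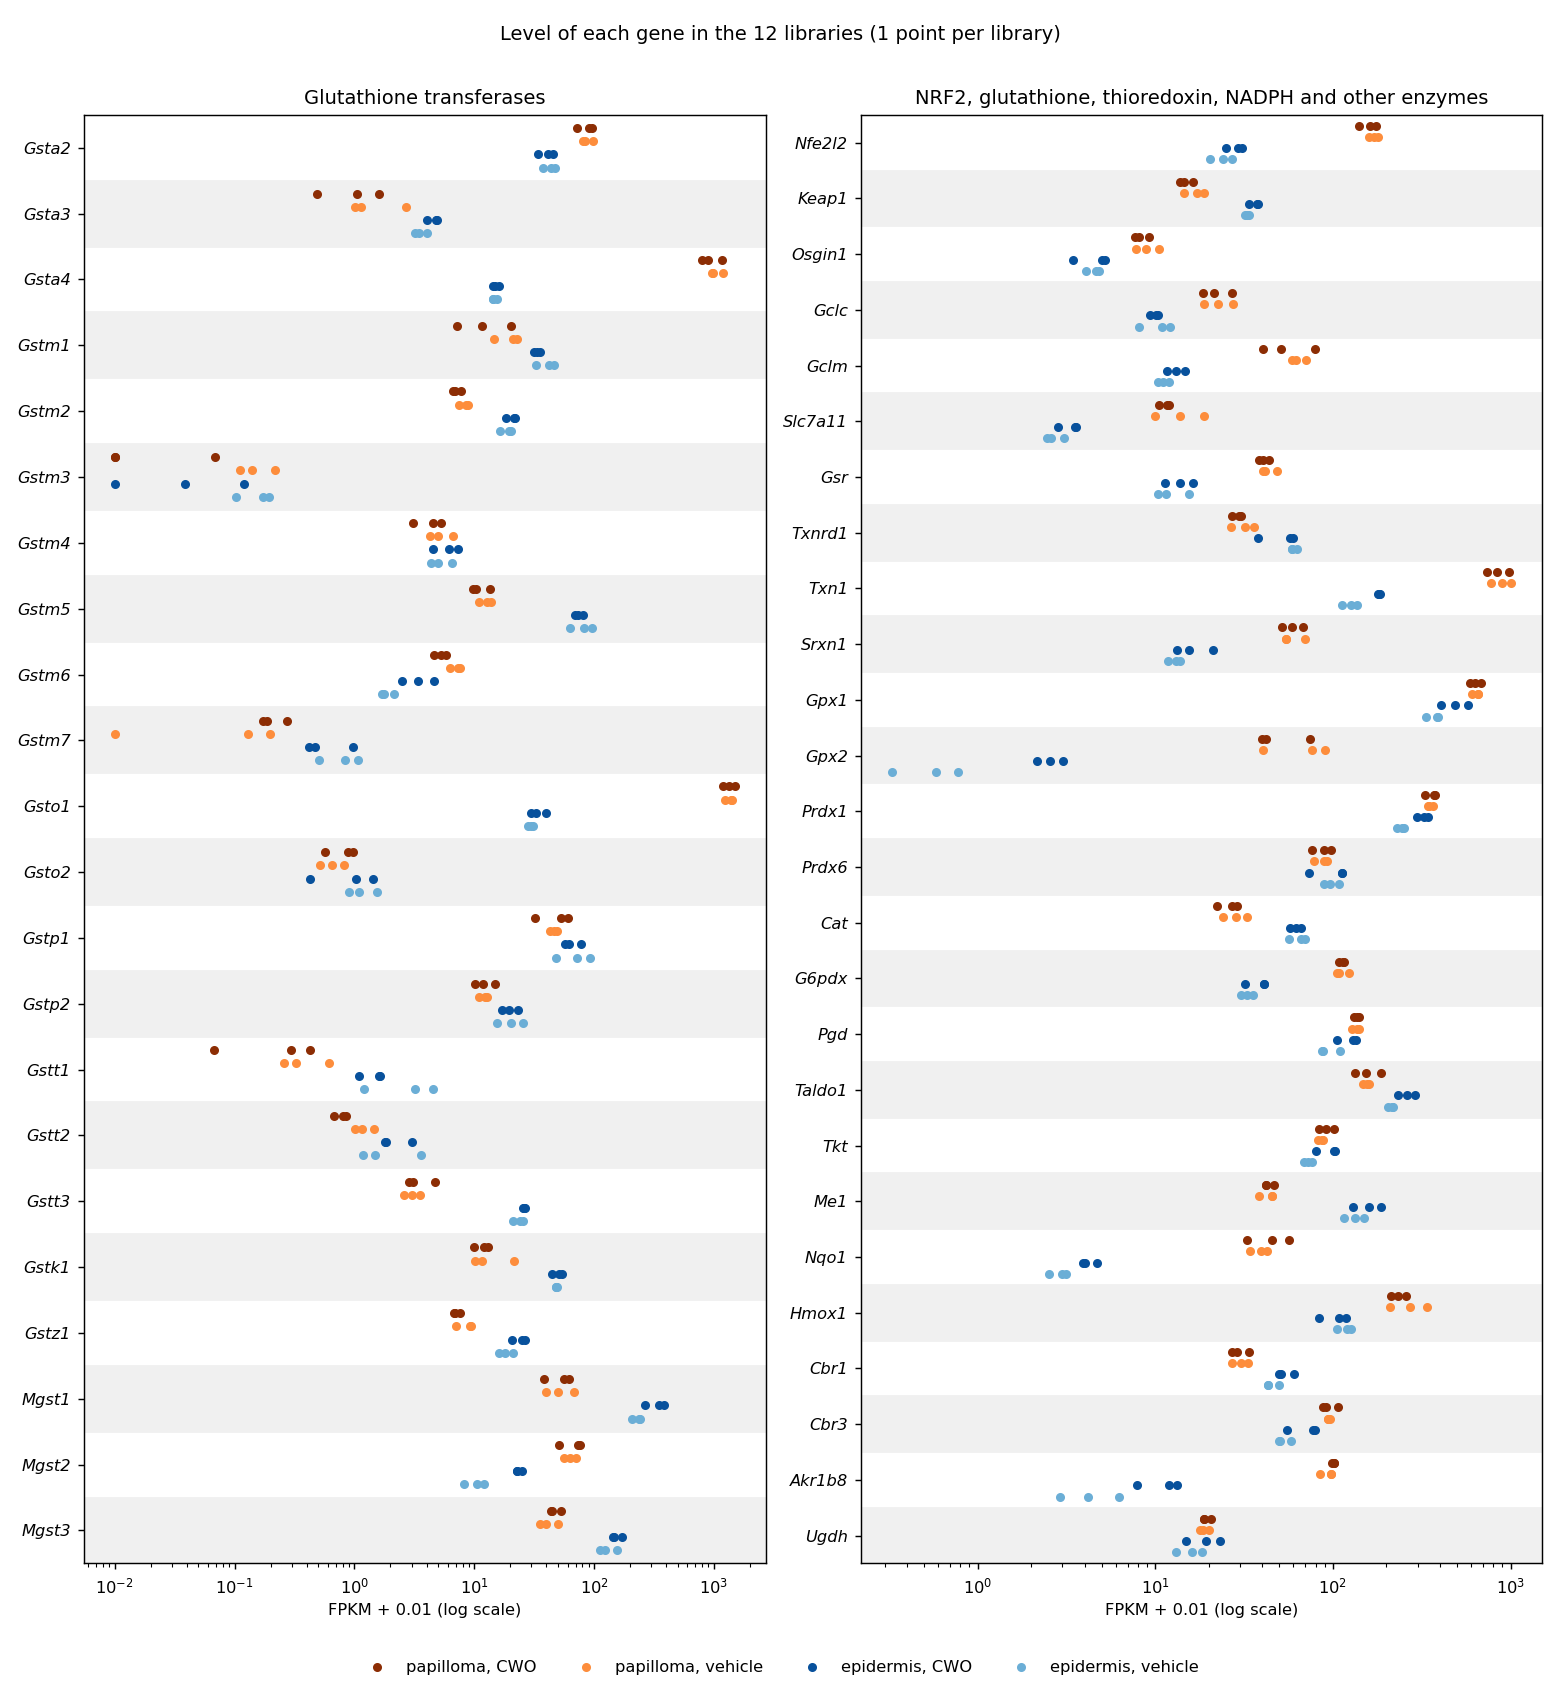
Level of each of the 48 genes as FPKM plus 0.01 on a log axis, with 1 point per library and colours for the 4 groups. Gsta4, Gsto1, Gpx2, Nqo1 and Akr1b8 show the widest gaps between papillomas (brown and orange) and epidermis (blues), while Gstm5, Gstt3, Mgst1 and Me1 lie lower in papillomas.

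Among the transferases, 2 cytosolic enzymes stood far above the rest in tumours. Gsta4, the alpha-class transferase that conjugates the lipid peroxidation product 4-hydroxynonenal (chromosome 9, 78039772 to 78057156 on mm9), stood at 797, 900 and 1171.5 FPKM in CWO papillomas and 976, 969 and 1189.6 FPKM in vehicle papillomas. Its level was 16.0, 14.9 and 14.2 FPKM in CWO epidermis and 14.3, 15.5 and 14.2 FPKM in vehicle epidermis. No papilloma library came near any epidermis library (under vehicle log2 fold change 6.05, SE 0.106, adjusted p = 9.91e-09; under CWO 5.88, SE 0.145, adjusted p = 7.85e-08). Gsto1, an omega-class transferase with thioltransferase and dehydroascorbate reductase activity (chromosome 19, 47929478 to 47939278), stood at 1190.2, 1329.6 and 1484.3 FPKM in CWO papillomas and 1397.6, 1230.0 and 1415.0 FPKM in vehicle papillomas. In epidermis it was at 39.3, 29.8 and 32.5 FPKM with CWO and 27.9, 29.7 and 31.1 FPKM with vehicle. The mean FPKM of Gsto1 was 45.5 times higher in vehicle papillomas than in vehicle epidermis, and its log2 fold change was 5.46 (SE 0.097, adjusted p = 9.91e-09), against 5.26 under CWO (SE 0.133, adjusted p = 8.35e-08). Gsta4 and Gsto1 were the 2 most abundant of the 48 genes in papillomas, by mean FPKM, whereas Gpx1 was the most abundant in epidermis.

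Together Gsta4 and Gsto1 made up 84.2% to 87.6% of summed transferase FPKM in CWO papillomas and 84.1% to 87.7% in vehicle papillomas, against 4.78% to 5.56% in CWO epidermis and 5.20% to 6.18% in vehicle epidermis. Without these 2 genes the sum ran the other way. It was 343, 420 and 377 FPKM in CWO papillomas and 376, 415 and 366 FPKM in vehicle papillomas, against 938, 781 and 931 FPKM in CWO epidermis and 738, 823 and 687 FPKM in vehicle epidermis. In epidermis the largest single shares belonged to Mgst1 and Mgst3, microsomal transferases that sit in membranes.

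**Figure D2:**
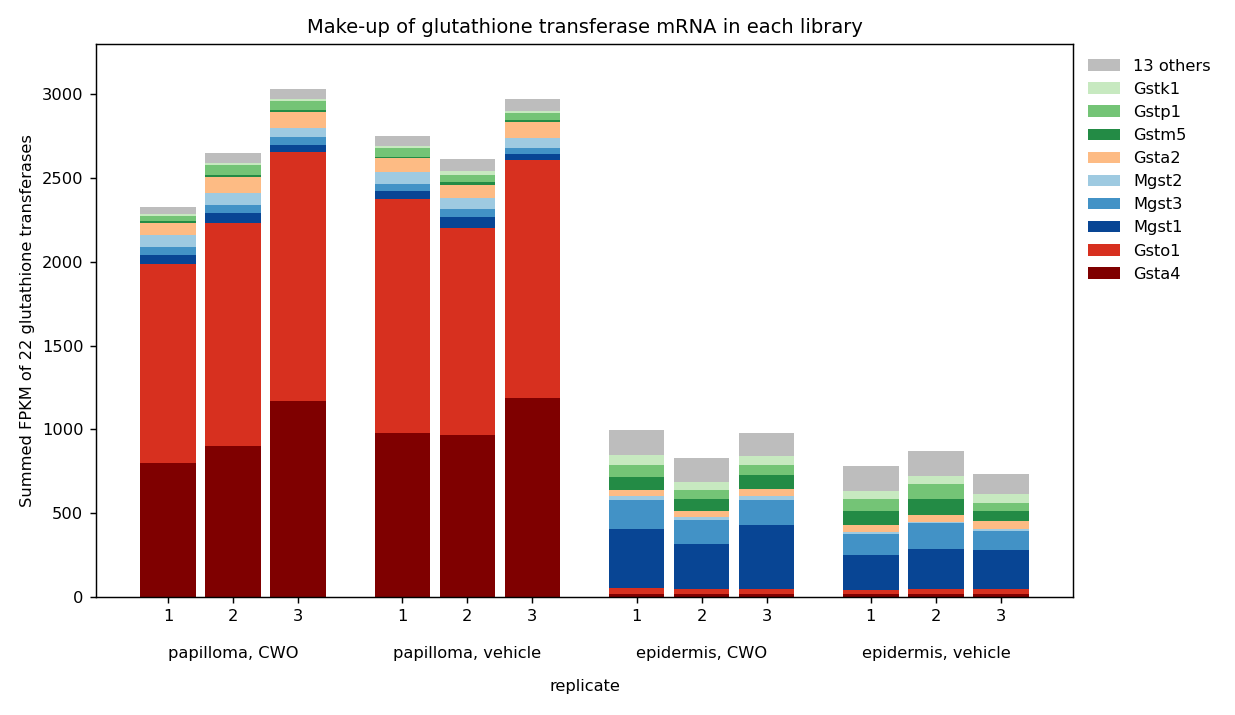
Summed FPKM of the 22 glutathione transferases in each library, stacked by gene, with replicates 1 to 3 of each group side by side. Gsta4 and Gsto1 fill most of each papilloma bar, and Mgst1 and Mgst3 take the largest parts of each epidermis bar.

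Mgst2 was the remaining transferase with a large rise. This microsomal enzyme, which can also conjugate glutathione to leukotriene A4 (chromosome 3, 51465114 to 51486597), stood at 72.9, 76.7 and 51.1 FPKM in CWO papillomas and 70.4, 62.7 and 56.5 in vehicle papillomas, against 22.8, 22.7 and 25.2 in CWO epidermis and 10.5, 8.14 and 12.1 in vehicle epidermis. The tissues did not overlap, and the log2 fold change was 2.52 under vehicle (SE 0.148, adjusted p = 2.61e-06) and 1.45 under CWO (SE 0.155, adjusted p = 6.05e-05). Gsta2, an alpha-class enzyme, averaged 87.6 FPKM in vehicle papillomas and 43.0 in vehicle epidermis (log2 fold change 1.01), but its coding sequence is 97.6% identical to that of Gsta1, so reads may have been split between them. Gsta1, which is not among the 48 genes, averaged 211 FPKM in vehicle papillomas and 18.9 in vehicle epidermis (log2 fold change 3.40, adjusted p = 4.37e-07). Gstm6, of the mu class, averaged 7.06 FPKM in vehicle papillomas and 1.85 in vehicle epidermis (log2 fold change 1.50, adjusted p = 1.85e-05), and the groups overlapped under CWO (0.48, adjusted p = 0.0408).

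The transferases called lower came from every class but omega, for which Gsto2 was below the filter. Gsto2 was lower without overlap under vehicle, at 0.507, 0.817 and 0.640 FPKM in papillomas against 1.52, 1.08 and 0.899 in epidermis. Under CWO its libraries overlapped. Mgst1 (chromosome 6, 138089057 to 138105273), which protects membranes from lipid peroxides, stood at 55.6, 62.3 and 38.3 FPKM in CWO papillomas and 49.7, 68.3 and 39.8 in vehicle papillomas, against 350, 268 and 383 in CWO epidermis and 208, 241 and 236 in vehicle epidermis. Every papilloma library lay far below every epidermis library, with log2 fold changes of -2.67 under CWO (adjusted p = 8.01e-06) and -2.13 under vehicle (adjusted p = 1.77e-05). Gstm5 (chromosome 3, 107698771 to 107701603), a mu-class enzyme, averaged 12.5 ± 1.37 FPKM in vehicle papillomas and 79.9 ± 16.5 in vehicle epidermis (SD, n = 3 libraries each; log2 fold change -2.57). Gstt3, of the theta class (chromosome 10, 75236866 to 75244159), averaged 3.02 ± 0.472 FPKM in vehicle papillomas and 23.4 ± 2.31 in vehicle epidermis (log2 fold change -2.61). Under CWO the log2 fold changes of Gstm5 and Gstt3 were -2.63 and -2.59. Gstk1, the mitochondrial and peroxisomal kappa enzyme, had -1.75 under vehicle and -2.00 under CWO, and Mgst3 had -1.62 and -1.68. Gstz1 of tyrosine breakdown, Gstm2, Gstm1, Gsta3 and Gstt1 fell by 0.86 to 1.42 on the log2 scale under vehicle. Gstt1 was under the filter's FPKM of 1 in each vehicle papilloma library (0.314, 0.607 and 0.248). It passed only through epidermis, so the filter fixed its separation and its call is a description.

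The pi-class genes were lower in papillomas under vehicle, and their values are uncertain. Gstp1, the pi-class transferase long used as a marker of transformed liver cells in rats, averaged 46.2 ± 3.07 FPKM in vehicle papillomas and 70.8 ± 21.9 in vehicle epidermis, with overlapping libraries (log2 fold change -0.56, SE 0.207, adjusted p = 0.0392). Under CWO it averaged 48.4 ± 14.4 FPKM in papillomas and 65.4 ± 10.4 in epidermis (log2 fold change -0.46, 95% interval -0.97 to 0.05, adjusted p = 0.0953). Gstp2 was at 10.2, 15.0 and 11.9 FPKM in CWO papillomas and 12.4, 12.7 and 10.9 in vehicle papillomas, against 23.2, 19.4 and 17.1 in CWO epidermis and 20.2, 25.7 and 15.5 in vehicle epidermis. The tissues did not overlap under either treatment (log2 fold change -0.70, SE 0.171, adjusted p = 0.00639 under vehicle; -0.65, SE 0.162, adjusted p = 0.00673 under CWO). Gstp1 and Gstp2 have coding sequences 98.1% identical, so the split of reads between them is uncertain. Gstm4 averaged 5.29 FPKM in vehicle papillomas and 5.26 in vehicle epidermis and did not pass, and neither did Gstt2 (log2 fold change -0.41, adjusted p = 0.197). Gstm3, Gstm7 and Gsto2 were below the filter. Gstm3 rested on 0 to 4 recovered fragments per library, and Gstm7 averaged 0.102 FPKM in vehicle papillomas and 0.792 in vehicle epidermis (exact permutation test, two-sided, p = 0.1, the smallest that 3 against 3 libraries allow).

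Nfe2l2 itself was among the genes with the largest rises. Its level (chromosome 2, 75513575 to 75542698) was 140, 175 and 162 FPKM in CWO papillomas and 180, 171 and 160 in vehicle papillomas, against 29.3, 25.1 and 30.6 in CWO epidermis and 24.0, 20.2 and 27.0 in vehicle epidermis. The tissues did not overlap (log2 fold change 2.80, SE 0.117, adjusted p = 5.62e-07 under vehicle; 2.45, SE 0.119, adjusted p = 9.39e-07 under CWO). Keap1, the inhibitor of NRF2 (chromosome 9, 21034173 to 21043776), went the other way, with 13.8, 16.4 and 14.6 FPKM in CWO papillomas and 18.8, 17.2 and 14.5 in vehicle papillomas, against 37.6, 37.9 and 33.5 in CWO epidermis and 32.7, 31.8 and 33.8 in vehicle epidermis. All papilloma libraries lay below all epidermis libraries (log2 fold change -0.93, SE 0.111, adjusted p = 0.000119 under vehicle; -1.23, SE 0.106, adjusted p = 1.76e-05 under CWO). Osgin1, an oxidative stress-induced growth inhibitor, rose by 0.86 under vehicle and 0.77 under CWO. Among 8 other regulators of NRF2 in a separate list, 2 were higher and 4 lower in papillomas under vehicle, which is 75% called, near the 70.2% of all genes tested.

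All 4 genes of glutathione synthesis and reduction rose in papillomas in both comparisons. Gclm, the modifier subunit of glutamate-cysteine ligase, whose promoter is printed above, stood at 40.6, 51.2 and 79.6 FPKM in CWO papillomas and 62.3, 71.0 and 59.2 in vehicle papillomas, against 14.7, 11.6 and 13.1 in CWO epidermis and 11.9, 10.4 and 11.1 in vehicle epidermis. The tissues did not overlap (log2 fold change 2.42 under vehicle, adjusted p = 6.2e-07, and 1.99 under CWO, adjusted p = 7.79e-05). Gclc, the catalytic subunit, rose less, with a mean of 22.9 ± 4.38 FPKM in vehicle papillomas and 10.4 ± 2.08 in vehicle epidermis (log2 fold change 1.07, adjusted p = 0.000771). Slc7a11, the cystine importer that supplies cysteine, had log2 fold changes of 1.99 under vehicle and 1.52 under CWO, and Gsr, which reduces oxidised glutathione, had 1.74 and 1.51. In a separate list of 17 other genes of glutathione metabolism, 5 were higher and 7 lower among 16 tested under vehicle, again 75% beside 70.2% of all genes tested. Gss, the second enzyme of glutathione synthesis, was higher (0.89), and so was Glrx, a glutaredoxin (3.50; 1058.3 FPKM in vehicle papillomas and 93.2 in vehicle epidermis). Cbs, the first enzyme of transsulfuration, was lower, at 1.99 FPKM in vehicle papillomas and 39.2 in vehicle epidermis (log2 fold change -3.79, adjusted p = 1.4e-06).

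The thioredoxin and peroxidase genes split. Gpx2, an epithelial glutathione peroxidase (chromosome 12, 77893321 to 77896541), stood at 40.0, 74.4 and 42.2 FPKM in CWO papillomas and 40.4, 90.3 and 76.6 in vehicle papillomas, against 2.56, 3.02 and 2.16 in CWO epidermis and 0.763, 0.318 and 0.573 in vehicle epidermis. Under vehicle Gpx2 passed the filter only through the papilloma libraries, so the filter fixed its separation and its call there is a description. Vehicle epidermis rested on 3 to 12 recovered fragments per library (log2 fold change 5.43, SE 0.276, adjusted p = 1.35e-06 by limma). Under CWO every library was above the filter's FPKM of 1 and the tissues did not overlap (3.84, SE 0.228, adjusted p = 2.59e-06 by limma). Txn1, thioredoxin itself (chromosome 4, 57956244 to 57969283), stood at 983, 838 and 741 FPKM in CWO papillomas and 1012.1, 894 and 775 in vehicle papillomas, against 182, 179 and 183 in CWO epidermis and 126, 112 and 136 in vehicle epidermis. The lowest papilloma library was well above the highest epidermis library (log2 fold change 2.83 under vehicle and 2.22 under CWO). Txnrd1, the reductase that recharges thioredoxin, was lower in papillomas, averaging 31.6 ± 4.77 FPKM in vehicle papillomas and 60.3 ± 2.53 in vehicle epidermis (log2 fold change -0.92, adjusted p = 0.000186). Srxn1, which repairs over-oxidised peroxiredoxins, had 2.12 under vehicle and 1.8 under CWO, and Gpx1 had 0.79 and 0.39. Prdx1 rose under vehicle (0.54) and did not pass under CWO (0.15, 95% interval -0.10 to 0.40). Cat, catalase, fell by 1.15 under vehicle and by 1.22 under CWO, and Prdx6 had -0.16 in both and did not pass. In a list of 18 further peroxidases, dismutases and thioredoxin genes, 4 were higher and 12 lower under vehicle, beside 31.8% and 38.3% of all genes tested. Those lower included the lipid peroxide reductase Gpx4 (-2.60), the superoxide dismutases Sod1 (-1.81) and Sod3 (-3.09) and the thioredoxin inhibitor Txnip (-2.98).

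Among genes of NADPH supply, G6pdx, the first enzyme of the pentose phosphate pathway, stood at 114, 115 and 108 FPKM in CWO papillomas and 105, 108 and 123 in vehicle papillomas, against 41.2, 41.1 and 32.1 in CWO epidermis and 30.4, 35.4 and 32.7 in vehicle epidermis. No library overlapped between tissues (log2 fold change 1.74 under vehicle and 1.54 under CWO). Pgd and Tkt of the same pathway rose under vehicle (0.52 and 0.23) and did not pass under CWO (0.14 and -0.05). Taldo1, also of that pathway, fell (-0.46 under vehicle and -0.74 under CWO). Me1, the cytosolic malic enzyme that supplies NADPH for fatty acid synthesis, averaged 43.3 ± 4.10 FPKM in vehicle papillomas and 132 ± 16.7 in vehicle epidermis (log2 fold change -1.59). The sebaceous gland marker sum was also lower in papillomas, as given above, and its part in Me1 was not tested.

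The quinone and carbonyl enzymes included 2 large rises. Nqo1, a quinone reductase and the usual reporter of NRF2 activity (chromosome 8, 109912124 to 109927105), stood at 45.7, 56.8 and 32.7 FPKM in CWO papillomas and 42.3, 34.1 and 39.3 in vehicle papillomas, against 4.70, 3.90 and 4.02 in CWO epidermis and 2.53, 2.97 and 3.14 in vehicle epidermis. The tissues did not overlap (log2 fold change 3.35, SE 0.121, adjusted p = 3.02e-07 under vehicle; 3.11, SE 0.188, adjusted p = 2.82e-06 under CWO). Akr1b8, an aldo-keto reductase (chromosome 6, 34304163 to 34318454), stood at 99.4, 102 and 102 FPKM in CWO papillomas and 97.6, 97.0 and 84.9 in vehicle papillomas, against 11.9, 13.2 and 7.90 in CWO epidermis and 4.17, 2.90 and 6.21 in vehicle epidermis. Its papilloma libraries were all high and close together (log2 fold change 4.16 under vehicle and 3.12 under CWO). Hmox1, haem oxygenase 1, averaged 274 ± 64.1 FPKM in vehicle papillomas and 117 ± 10.8 in vehicle epidermis (log2 fold change 1.20), and Cbr3, a carbonyl reductase, had 0.84. Its relative Cbr1 was lower (-0.58), and Ugdh, which makes UDP-glucuronic acid, did not pass (0.26, adjusted p = 0.116).

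**Figure D3:**
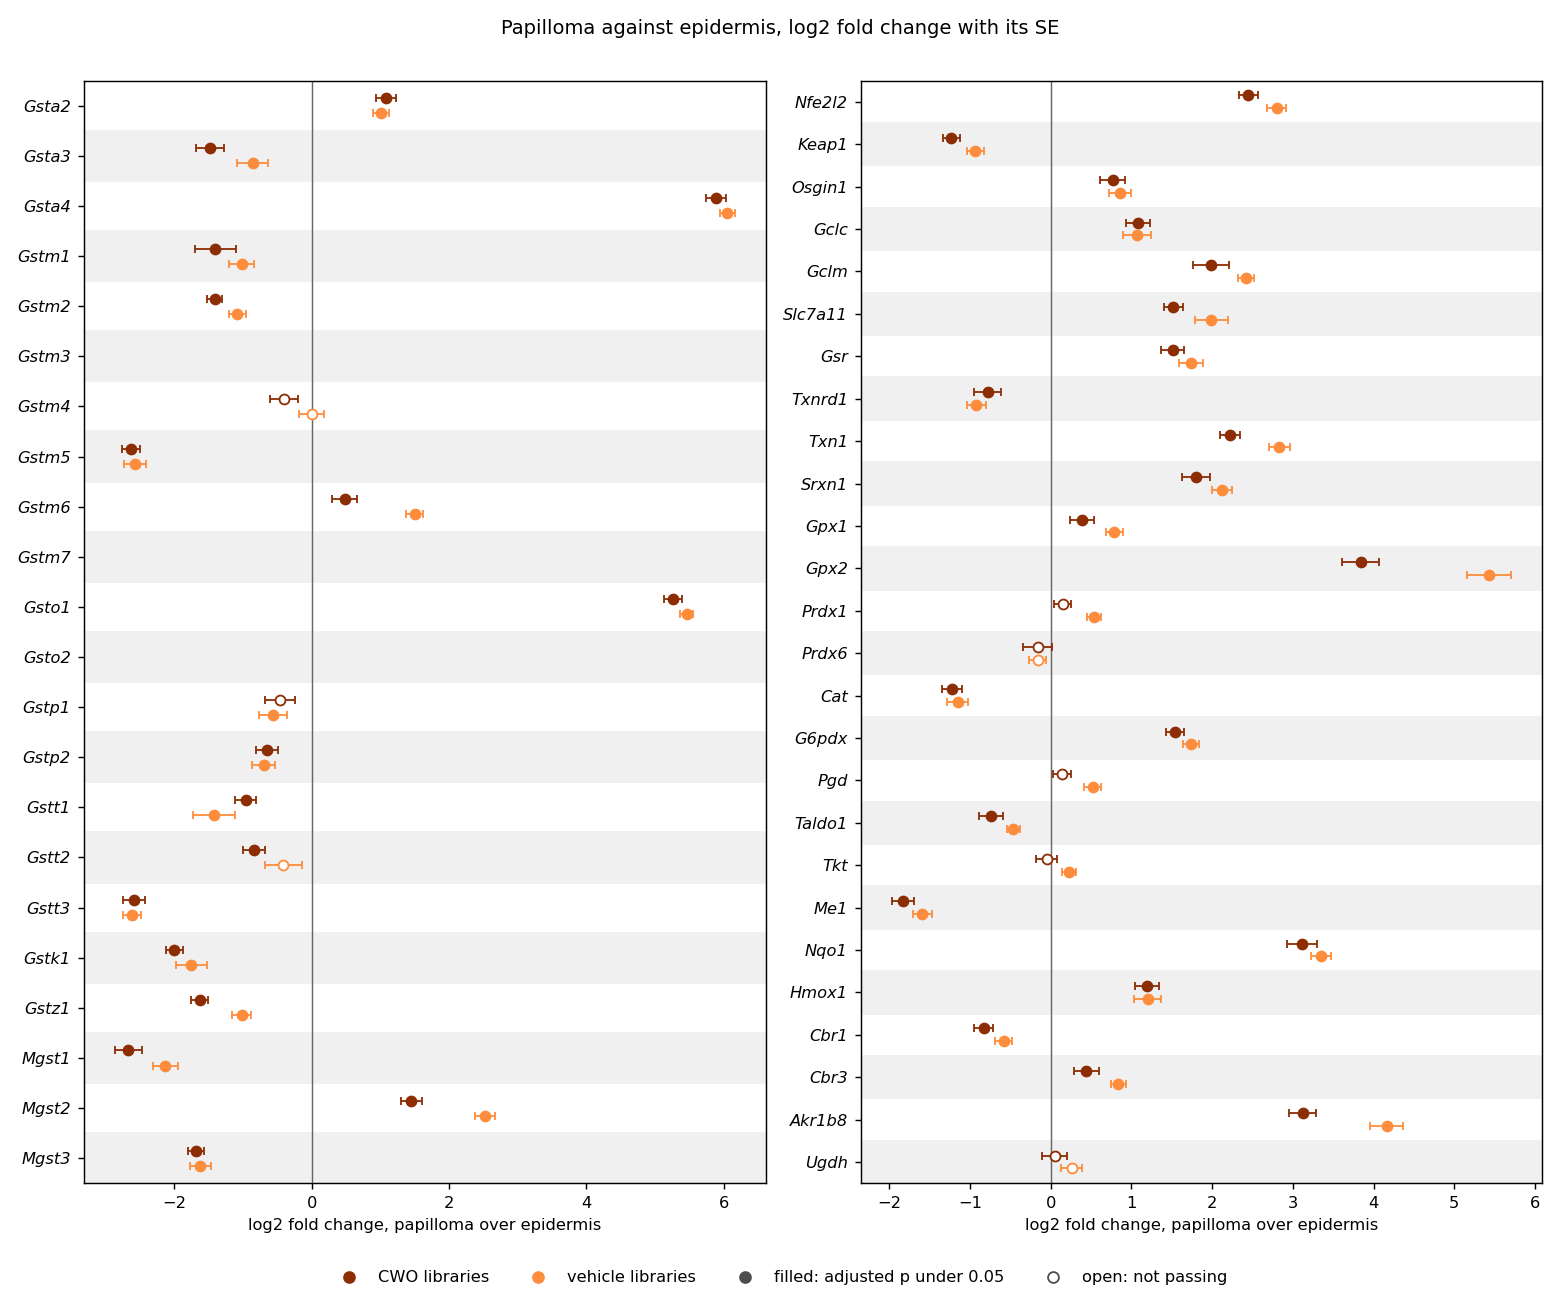
Log2 fold change of papilloma over epidermis with its SE for each gene that passed the filter, among CWO libraries (brown) and among vehicle libraries (orange). Most transferases lie left of 0 apart from Gsta4, Gsto1, Mgst2, Gsta2 and Gstm6, and most other genes lie right of 0, with Gpx2 at 3.84 under CWO and 5.43 under vehicle.

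The next comparison asked how normal epidermis responds to CWO at 24 h. Of 46 genes tested, 3 were called higher (Mgst2, Gpx2 and Txn1), none lower and 43 did not pass, beside 2.00% of the 12287 genes tested that were called (1.82% higher and 0.179% lower). Gpx2 passed the filter only through the CWO libraries, where it is high, so its separation and call are a description and the count gives no support through it. The median log2 fold change was 0.21 over the 46 genes, and 0.02 over all genes tested. All 3 CWO libraries lay above all 3 vehicle libraries in 12 of the 46 genes, Gpx2 included, and below them in none, beside 12.1% and 6.67% of all genes tested. At an unadjusted p under 0.05 there were 14 genes, all higher, beside 14.7% of all genes tested (9.61% higher and 5.12% lower).

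Mgst2 was at 22.8, 22.7 and 25.2 FPKM in CWO epidermis, against 10.5, 8.14 and 12.1 FPKM in vehicle epidermis. Each CWO library was well above each vehicle library (log2 fold change 1.14, SE 0.149, adjusted p = 0.00943). The authors' deposited table for epidermis, which lists 176 genes, also holds Mgst2, with a log2 fold change of 1.20 and an adjusted p of 0.00470. Gpx2 and Txn1 are not in that table, which lists no gene with an adjusted p above 0.00544. It was made from the same libraries, so it is not an independent check. Gpx2 was at 2.56, 3.02 and 2.16 FPKM in CWO epidermis, against 0.763, 0.318 and 0.573 FPKM in vehicle epidermis. All 3 vehicle libraries were under the filter's FPKM of 1 and all 3 CWO libraries above it, so the filter fixed this separation, on 32 to 46 recovered fragments per CWO library and 3 to 12 per vehicle library (log2 fold change 1.21, SE 0.167, adjusted p = 0.0125; 4.68 times the mean FPKM of vehicle). Txn1 was at 182, 179 and 183 FPKM in CWO epidermis, against 126, 112 and 136 FPKM in vehicle epidermis, with no overlap (log2 fold change 0.54, SE 0.107, adjusted p = 0.0461).

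These calls stood beside the difference in muscle markers given above. With vehicle libraries 1 and 2 left out, so that the spread came from the CWO libraries alone, none of the 3 genes passed by limma. The log2 fold changes were then 0.90 for Mgst2 (adjusted p = 0.186), 1.18 for Gpx2 (adjusted p = 0.131) and 0.41 for Txn1 (adjusted p = 0.769), and 12 of all genes were called. Among the libraries left out one at a time, Mgst2 kept its call each time, whereas Txn1 kept it only without vehicle library 3 (adjusted p = 0.0265) and had adjusted p of 0.0805 to 0.195 otherwise. Gpx2 kept its call without any 1 vehicle library and fell below the filter without any 1 CWO library. Cell cycle marker genes also moved with treatment, their sum being 122, 114 and 87.2 FPKM with CWO against 33.6, 25.9 and 47.3 FPKM with vehicle. Sebaceous gland markers summed to 3292.1, 2834.5 and 2875.1 FPKM with CWO, against 2304.3, 2405.0 and 2612.8 with vehicle. Members of that sum moved apart, with Krt79, Elovl3 and Dgat2l6 higher with CWO in every library. Scd3 was lower, at 31.3, 21.4 and 44.7 FPKM with CWO against 119, 114 and 137 with vehicle. Awat2 was lower as well, at 116, 92.9 and 157 FPKM against 279, 207 and 219. Fibroblast markers summed to 23.4, 11.8 and 21.7 FPKM with CWO, against 68.7, 46.0 and 28.2 with vehicle. None of these 3 sums overlapped between treatments, and their part in the result was not tested.

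**Figure D4:**
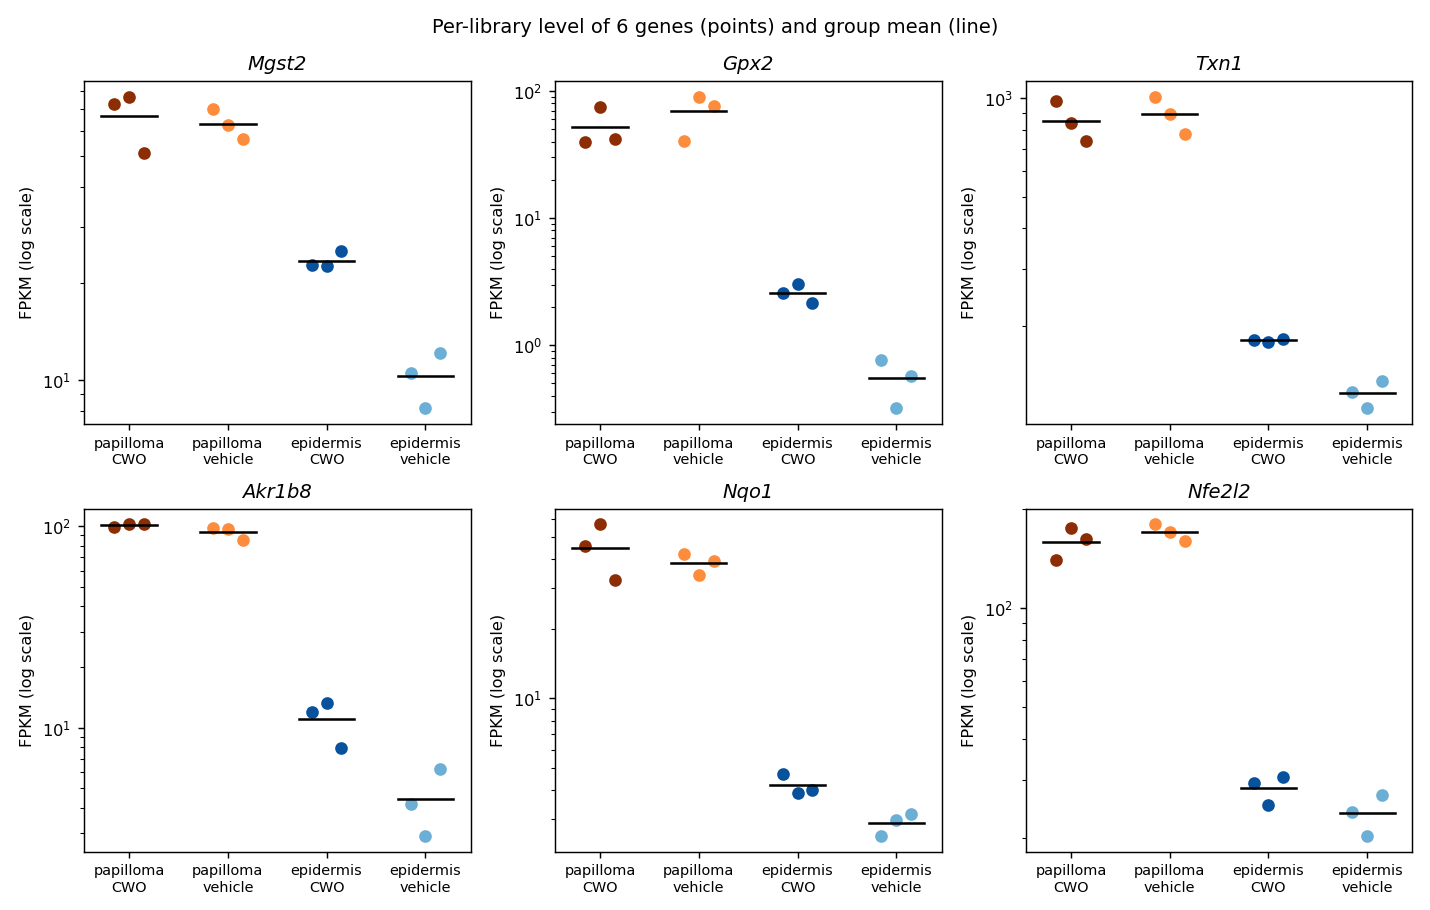
Level of Mgst2, Gpx2, Txn1, Akr1b8, Nqo1 and Nfe2l2 in each library (points) with the group mean (line), FPKM on log axes that differ between panels. In epidermis the CWO points lie above the vehicle points for the first 5 genes, and for all 6 the papilloma points lie higher still, with the CWO and vehicle papillomas side by side.

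Akr1b8 came closest to the threshold among the rest. Its level was 11.9, 13.2 and 7.90 FPKM in CWO epidermis, against 4.17, 2.90 and 6.21 FPKM in vehicle epidermis, without overlap but not past the test (log2 fold change 1.17, SE 0.254, adjusted p = 0.0649). The other genes without overlap and without a call were Gstm6 (0.64), Mgst1 (0.53), Nqo1 (0.42), Prdx1 (0.41), Gpx1 (0.38), Tkt (0.38), Taldo1 (0.30) and Cbr1 (0.24), with adjusted p between 0.113 for Prdx1 and 0.407 for Cbr1. Nqo1 was at 4.70, 3.90 and 4.02 FPKM in CWO epidermis, against 2.53, 2.97 and 3.14 FPKM in vehicle epidermis (adjusted p = 0.197). Several well-known NRF2 targets did not pass, and their 95% intervals given below held 0. Srxn1 and Gsr did not pass either and overlapped. Srxn1 had 15.4, 21.1 and 13.2 FPKM with CWO against 11.8, 13.1 and 13.8 with vehicle. Gsr had 13.8, 11.3 and 16.4 FPKM against 11.5, 10.3 and 15.5. Hmox1 had 83.2, 108 and 119 FPKM in CWO epidermis against 105, 126 and 120 in vehicle epidermis (log2 fold change -0.19, 95% interval -0.53 to 0.15). Txnrd1 had -0.25 (-0.63 to 0.14), Gclc had -0.04 (-0.40 to 0.31), Gclm had 0.22 (-0.07 to 0.51) and Slc7a11 had 0.22 (-0.11 to 0.55). Gsta4 had 0.03 (-0.22 to 0.28) and Gsto1 had 0.18 (-0.11 to 0.47). Nfe2l2 had 0.25 (-0.06 to 0.56) and Keap1 had 0.14 (-0.09 to 0.37). For 41 of the 46 genes the 95% interval stayed within 1 either way on the log2(FPKM + 1) scale. That scale understates changes of low genes, so it does not bound their FPKM within 2-fold.

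Of 69 tested genes in lists of further pathway genes, 1 (1.45%) was called higher with CWO in epidermis, beside 1.82% of all genes tested. That gene, Glrx, stood at 157, 164 and 158 FPKM with CWO, against 75.9, 105 and 98.4 FPKM with vehicle (log2 fold change 0.78, SE 0.134, adjusted p = 0.0268 by limma). It lost its call in 7 of 20 alternative settings. These were without vehicle library 1 (adjusted p = 0.0681), CWO library 1 (0.123), CWO library 2 (0.0891) or both muscle-rich libraries (0.296), with no filter (0.0846), with a replicate block (0.0891) and with the muscle covariate (0.351). The authors' deposited table lists Glrx with a log2 fold change of 1.06. The median of these 69 genes was 0.03, beside 0.02 over all genes tested.

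In papillomas, 6 weeks of CWO was compared with 6 weeks of vehicle. None of the 43 genes tested passed by limma, beside 0% of the 12142 genes tested, and 1 gene had an unadjusted p under 0.05, beside 2.53% of all genes tested (0.857% higher and 1.67% lower). limma-voom on recovered fragments also called 0 of them, and in the authors' deposited table none of the 48 genes had an adjusted p under 0.05. The gene with the smallest p was Gstm6, with 4.58, 5.23 and 5.82 FPKM in CWO papillomas against 6.28, 7.30 and 7.61 FPKM in vehicle papillomas (log2 fold change -0.38, SE 0.113, adjusted p = 1). It was 1 of 2 tested genes whose groups did not overlap, with Akr1b8 (0.12, SE 0.0766), beside 6.61% of all genes tested (3.02% higher and 3.58% lower). Gstm2 and Gstz1, next by p, had -0.20 and -0.23 and overlapping libraries. The median log2 fold change was -0.02 over the 43 genes and -0.01 over all genes tested.

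The genes called in epidermis lay close to 0 in papillomas or spread widely. Mgst2 had a log2 fold change of 0.07 (95% interval -0.30 to 0.44), Txn1 -0.07 (-0.39 to 0.26) and Gpx2 -0.38 (-1.15 to 0.39). Gsta4 and Gsto1 had -0.14 (-0.51 to 0.23) and -0.02 (-0.29 to 0.25), Nqo1 0.19 (-0.24 to 0.62), Nfe2l2 -0.10 (-0.33 to 0.13) and Hmox1 -0.20 (-0.59 to 0.19). For 40 of the 43 genes the 95% interval stayed within 1 either way on the log2(FPKM + 1) scale, the exceptions being Gsta3, Gstm1 and Gpx2. As in epidermis, that does not bound the FPKM of low genes within 2-fold. Below the filter, Gstt2 averaged 0.765 FPKM in CWO papillomas and 1.20 in vehicle papillomas and Gstm3 0.0194 and 0.146, both at an exact permutation p of 0.1. Of 68 further pathway genes tested, 0 were called and 3 had an unadjusted p under 0.05 (Aldh3a1, Ugt1a6a and Abcc3), beside 2.53% of all genes tested. In the authors' deposited table their log2 fold changes were -0.72, 0.51 and 0.33.

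**Figure D5:**
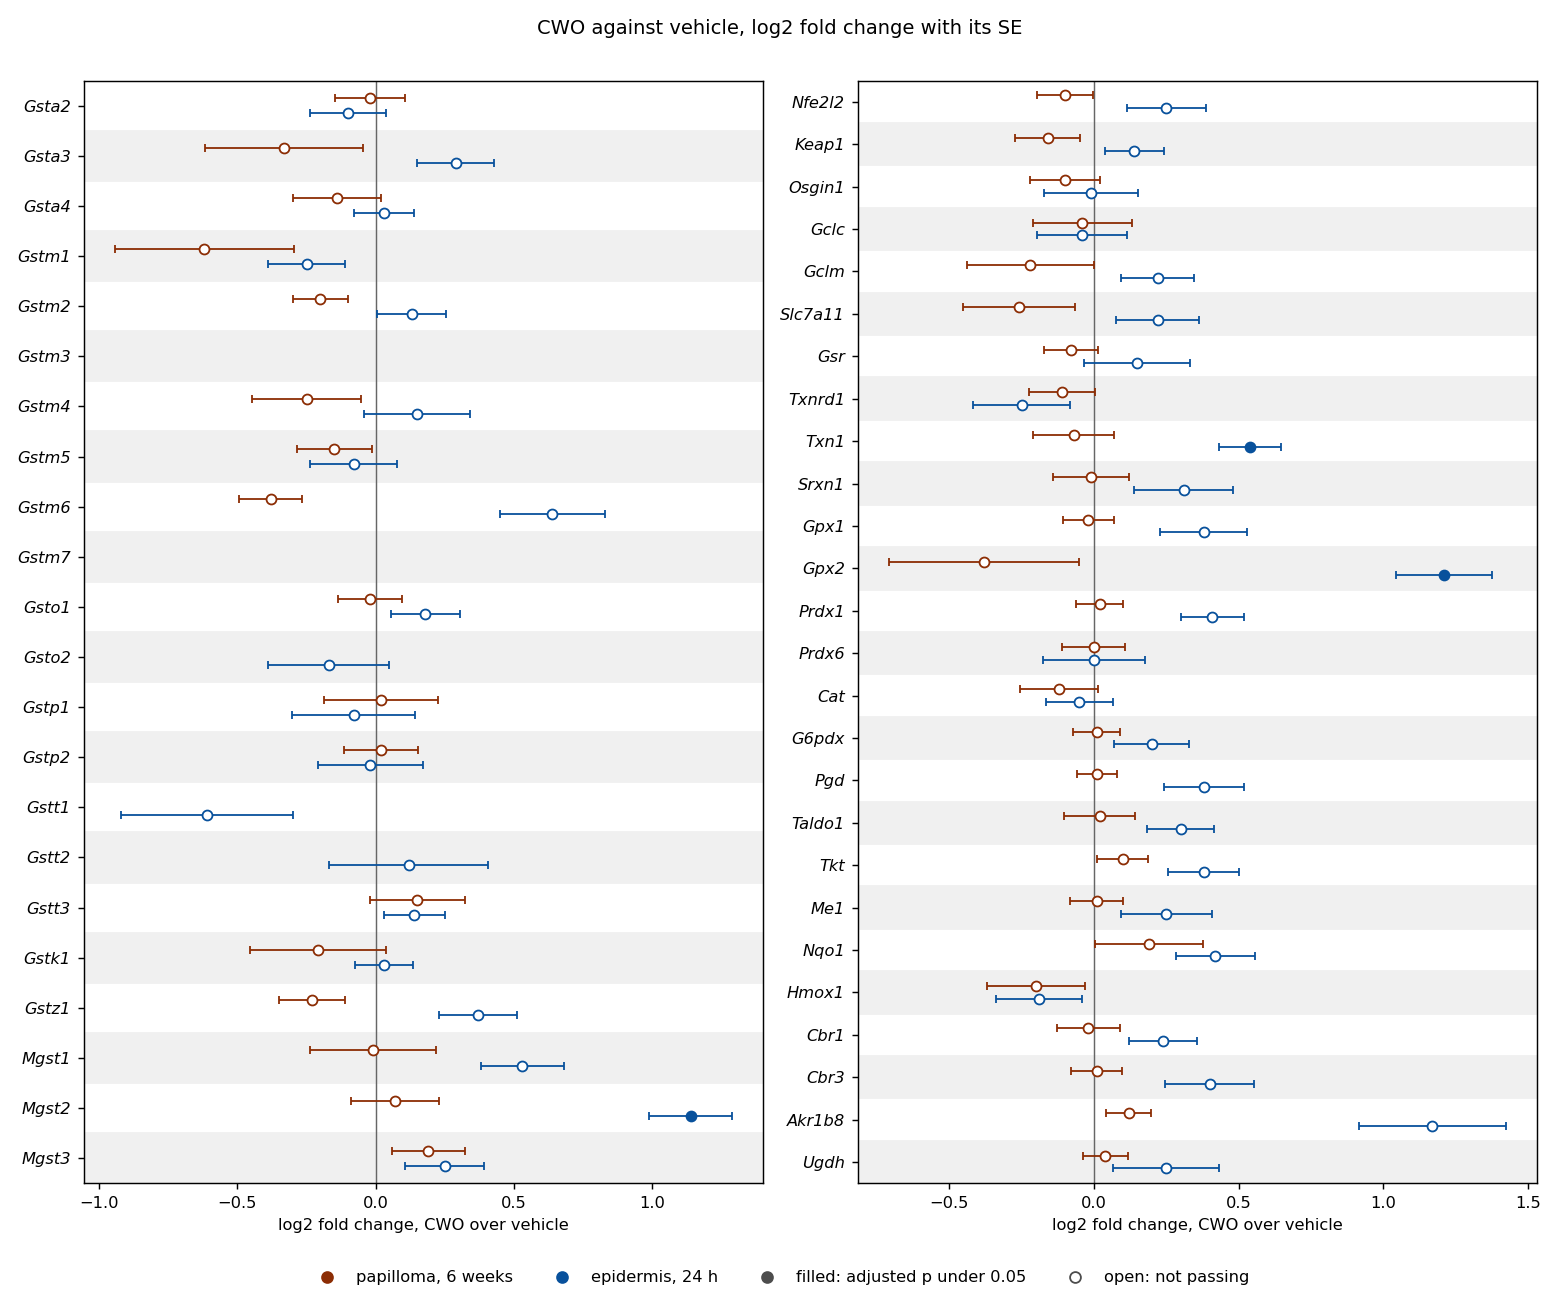
Log2 fold change of CWO over vehicle with its SE for each gene that passed the filter, in papilloma after 6 weeks (brown) and in epidermis after 24 h (blue). The filled points are the 3 genes called in epidermis, Mgst2, Gpx2 and Txn1, and the papilloma points are all open.

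Whether the effect of CWO differed between the tissues was tested as the papilloma effect minus the epidermis effect, with time, DMBA and TPA differing along with tissue. None of the 46 genes tested passed by limma, beside 0.766% of the 13184 genes tested (0.0303% positive and 0.736% negative), so the calls in epidermis are not shown to be particular to it. Those with the smallest p were Mgst2 (difference -1.07, SE 0.230, adjusted p = 0.0588), Gstm6 (-1.02, SE 0.227, adjusted p = 0.0681) and Gpx2 (-1.59, SE 0.401, adjusted p = 0.109). Each difference was negative, that is, a smaller or opposite effect in papilloma. At an unadjusted p under 0.05 there were 9 genes, all negative, beside 9.90% of all genes tested (2.55% positive and 7.35% negative). limma-voom on recovered fragments called 0 of them as well. The median difference was -0.27 over the 46 genes and -0.04 over all genes tested.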

How the data were processed

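PolyA RNA of 12 mouse libraries was measured. Per the submitters' processing notes, the tools were bcl2fastq 1.8.4, TopHat2 2.0.4, Cufflinks 2.0.2 and DESeq, with build mm9. Each deposited file lists FPKM for every gene, together with a confidence interval and a quantification status, per the file headers. The authors' deposited tables give mean normalised counts as signal, their ratio (fold), the log2 ratio and p-values.

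FPKM of the 248 symbols with more than 1 row were summed, and values not marked OK were treated as missing. Fragments were recovered from FPKM and its interval, taken as 2 SD; 67.9% to 69.2% of values under 500 were whole within 0.02. Depth limits genes of low level. limma 3.58.1 (R 4.3.3, intensity trend) was fitted over all genes passing the filter on log2(FPKM + 1), which understates changes of low genes, with Benjamini-Hochberg adjustment, two-sided, at 0.05. Intervals are 95% from the moderated t distribution. The fit was tested on simulated data. The genes and lists were chosen with earlier results of these data known. Named genes were the called genes without overlap, up to 12 by size, or the 3 with the smallest p, plus a fixed panel. No label says that epidermis replicates came from separate mice, so p-values measure the spread between these samples. Alternatives were other pseudocounts, filters, scalings and limma settings, limma-voom, a replicate block, left-out libraries and a muscle covariate. Coding identity came from a global alignment of the longest GENCODE M21 coding sequences.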

Additional observations from a re-analysis of the deposited data

Results flagged for a closer look

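Glrx, a glutaredoxin outside the 48 genes, is listed because its response to CWO differed between the tissues by the test of the difference (papilloma effect minus epidermis effect -0.89 on the log2 scale, SE 0.166, adjusted p = 0.0329 by limma). It stood at 1043.3, 919 and 986 FPKM in CWO papillomas against 1022.6, 1006.5 and 1145.9 in vehicle papillomas, and at 157, 164 and 158 FPKM in CWO epidermis against 75.9, 105 and 98.4 in vehicle epidermis. Of 25 alternative settings 12 lost this call.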

How the results depend on the processing

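In epidermis the number of genes called with CWO was 3, and it was 0 with no filter on low values, 1 with a mean FPKM of at least 3, 6 with all 12 libraries in 1 fit, 0 without both muscle-rich vehicle libraries, 0 with the muscle marker mean as a covariate, and 1 to 5 with 1 library left out. Mgst2 kept its call in 17 of 20 settings, Gpx2 in 12 of 16 and Txn1 in 7 of 20. For the difference between tissues the count was 0, and 1 with a pseudocount of 0.1 (Gpx2), 1 with robust limma (Mgst2) and 0 to 2 with 1 library left out. In papilloma it was 0 under CWO in each of 18 settings. Between tissues it was 36 to 42 under vehicle and 33 to 40 under CWO, except with the muscle marker mean as a covariate, which nearly follows tissue, where it was 15 and 3 and Gstp1 under vehicle reversed to 0.40. Over all genes the median log2 difference between tissues under CWO was 0.01 with median-ratio scaling and -0.12 without it, and none of the 48 genes called there changed sign under the 3 other scalings. Same-numbered libraries did not deviate together (correlations -0.416 to 0.261). With a replicate block 1 gene was called in epidermis, 0 in papilloma, 0 for the difference, and 40 and 36 between tissues under vehicle and CWO. Over all genes the epidermis count of 246 ran from 12 to 685. Depth limits Gstm3 and Gstm7, with 0 to 22 fragments per epidermis library, Gsto2, with 6 to 24 per library, and Gpx2 in vehicle epidermis.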
